A study of Mus musculus with 9 samples.

Results

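The genes described here are the G protein-coupled receptors (GPCRs) that could be picked out by their symbols, taken as adhesion receptors (Adgr), receptors with a Gpr number, Gprc5 and Lgr receptors, and the receptors for lysophospholipids, nucleotides and adenosine, prostanoids, endothelin, angiotensin, adrenaline, serotonin and acetylcholine. Of 162 annotated mouse genes with such a symbol, 120 were listed among the 20655 genes measured. They were measured by bulk RNA-seq in 3 populations of cells sorted from combined inguinal and axillary subcutaneous white fat of C57BL/6 mice at 12 days of age, males and females mixed. Cells were sorted as DPP4+, ICAM1+ or CD142+, with 3 libraries of each population and 9 in all. The labels name no genetic change and no treatment for any population. Of the 120 genes, 6 (Gpr89, Gpr107, Gpr108, Gpr137, Gpr155 and Gpr180) carry a Gpr name although their proteins are not known as receptors of the cell surface, and they were kept because the choice was by symbol.

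GPCRs cross the plasma membrane several times and pass the binding of a ligand on to heterotrimeric G proteins inside the cell. Receptors that couple to Gs raise cyclic AMP, those that couple to Gi lower it, and those that couple to Gq activate phospholipase C. In fat, Gs-coupled receptors such as the β-adrenergic receptors drive lipolysis in adipocytes, and Gi-coupled receptors such as the α2-adrenergic receptor and the EP3 receptor of prostaglandin E2 oppose it. Stromal cells of fat, among them the precursors of adipocytes, carry their own set of receptors.

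Levels are given as fitted levels, in normalised read counts. They are the 3 population values whose ratios equal the deposited fold changes and whose mean equals the deposited mean over the 9 libraries. They carry no error of their own, so the error stands with each log2 fold change as its standard error (SE). A gene was called higher or lower where the adjusted p of the deposited Wald test of DESeq2, corrected over all genes by the method of Benjamini and Hochberg, was below 0.05. The genes used for the sort followed their labels. Dpp4 had a fitted level of 5466 in DPP4+, 89.9 in ICAM1+ and 729 in CD142+ cells. F3, which encodes CD142, had 243, 310 and 1469 in the same order. Icam1 was at 1162, 7966 and 7058, so that the level of its transcript did not separate ICAM1+ from CD142+ cells.

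To show what lies upstream of the receptor genes that differed most, the 250 bases before the start site are given for 4 of them. These are the 2 lowest and the 2 highest in ICAM1+ against DPP4+ cells among receptor genes called there that have 1 start site in the RefSeq table (GRCm38.p6). Capitals mark GC boxes (CCGCCC on either strand), the only motif of those searched that these 4 windows held.
Adgrg2 (chrX:160390440-160390689, plus strand): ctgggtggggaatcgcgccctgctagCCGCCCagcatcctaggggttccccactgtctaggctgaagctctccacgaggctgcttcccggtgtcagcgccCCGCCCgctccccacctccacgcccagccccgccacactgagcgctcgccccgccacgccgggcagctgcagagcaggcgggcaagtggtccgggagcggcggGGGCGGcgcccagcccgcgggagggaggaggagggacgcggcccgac
Lpar3 (chr3:146220711-146220960, plus strand): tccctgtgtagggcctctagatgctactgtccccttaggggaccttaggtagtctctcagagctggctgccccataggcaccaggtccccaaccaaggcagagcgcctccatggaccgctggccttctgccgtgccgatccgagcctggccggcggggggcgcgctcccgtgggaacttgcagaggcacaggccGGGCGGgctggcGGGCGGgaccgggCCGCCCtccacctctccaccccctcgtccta
Ptger3 (chr3:157566626-157566875, plus strand): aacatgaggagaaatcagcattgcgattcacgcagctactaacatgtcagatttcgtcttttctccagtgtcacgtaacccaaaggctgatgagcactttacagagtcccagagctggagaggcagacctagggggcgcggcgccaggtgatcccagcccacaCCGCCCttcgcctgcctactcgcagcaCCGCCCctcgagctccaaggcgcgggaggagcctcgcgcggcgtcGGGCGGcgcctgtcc
Ptgir (chr7:16906240-16906489, plus strand): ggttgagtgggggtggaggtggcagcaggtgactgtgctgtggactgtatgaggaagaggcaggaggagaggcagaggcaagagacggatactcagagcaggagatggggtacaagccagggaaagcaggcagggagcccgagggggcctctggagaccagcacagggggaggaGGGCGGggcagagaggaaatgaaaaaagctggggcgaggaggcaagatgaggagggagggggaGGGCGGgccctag
A GC box thus lay upstream both of receptor genes that were lower and of receptor genes that were higher in ICAM1+ cells. Of the 120 genes, 90 had at least 1 promoter in that table, 118 promoters in all. A GC box was found in 47.5% of these and in 32.7% of all 32851 promoters. The median number of CpG dinucleotides in 250 bases was 9 for the receptor genes and 6 for all promoters. A TATA box (TATAAA) was found in 7.63% of receptor promoters and 12.4% of all, and a CCAAT box (CCAAT) in 34.7% and 33.8%. The full cAMP response element (TGACGTCA) occurred in 0.847% of receptor promoters, which is the 1 promoter of S1pr2, and in 1.55% of all. Both strands were searched, and hits of different motifs were counted separately even where they overlapped. A match of letters is not evidence of a factor being bound.

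Receptor genes were for the most part low. Their median mean was 20.2 normalised reads, against 46.6 over all genes, and together they held 0.222% of the summed means of all genes. A mean of at least 50 was reached by 48 of them, a mean of at least 1000 by 5 (Adgrd1, Adgra2, Gpr153, Lpar1 and Gprc5b), and 43 had a mean below 10. Per kilobase of exon, the scale on which genes can be compared, Gpr153 led with a mean of 434 normalised reads per kb, followed by Lpar1 at 326, Adgra2 at 324, Adgrd1 at 319 and Gprc5a at 284. The order differed between populations. In DPP4+ cells Adgrd1 led these with a fitted level of 605 per kb, whereas in ICAM1+ cells it had 111 per kb, below S1pr3 at 245 per kb and Agtr2 at 218 per kb. Gpr153, whose ligand is not known, was at 474, 393 and 434 per kb in DPP4+, ICAM1+ and CD142+ cells.

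Among 102 receptor genes tested in ICAM1+ against DPP4+ cells, 24 (23.5%) were higher and 17 (16.7%) were lower, where 12.4% of all genes tested were higher and 12% lower. In CD142+ against DPP4+ cells 17 of 101 (16.8%) were higher and 14 (13.9%) lower, beside 10.1% and 8.91% of all genes. In ICAM1+ against CD142+ cells 12 of 87 (13.8%) were higher and 6 (6.90%) lower, beside 3.77% and 5.28% of all genes. The median log2 fold change of the receptor genes tested was 0.40, -0.03 and 0.03 in these comparisons, and that of all genes tested lay within 0.02 of 0. Low genes were left without an adjusted p by the authors' filter, which was the case for 18 receptor genes in all 3 comparisons, so the shares refer to the better expressed ones. In all, 46 receptor genes were called in at least 1 comparison and 74 in none. Of the 46, 18 had their highest fitted level in DPP4+, 19 in ICAM1+ and 9 in CD142+ cells. The comparisons share libraries, and their counts are not independent of each other.

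**Figure D1:**
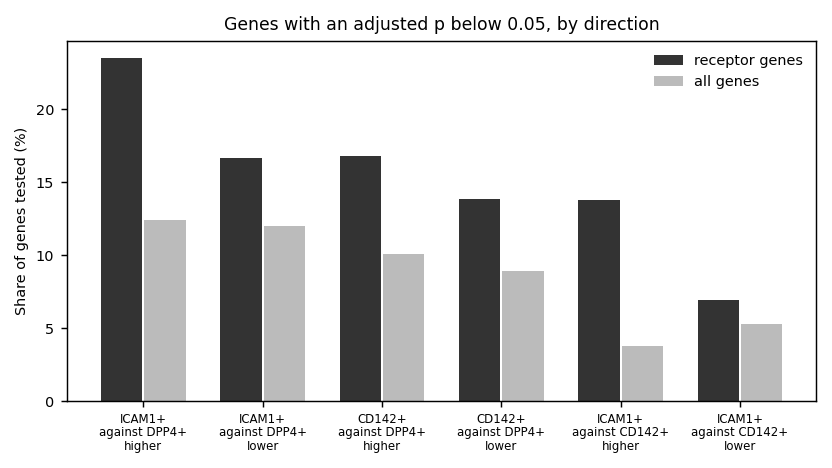
Share of the genes tested (in percent, y axis from 0) with an adjusted p below 0.05, for each comparison and direction, with receptor genes in dark and all genes in light bars. In ICAM1+ against CD142+ cells 13.8% of receptor genes and 3.77% of all genes were higher.

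**Figure D2:**
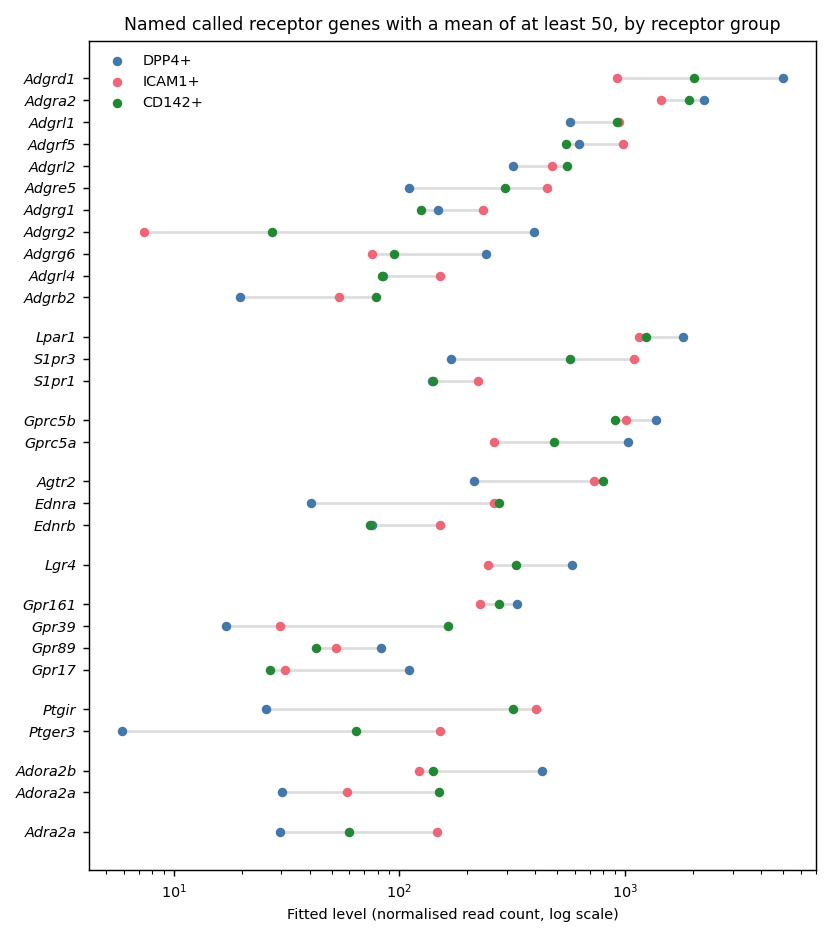
Fitted level (normalised read count, log axis) of the called receptor genes named in the text that have a mean of at least 50, in DPP4+, ICAM1+ and CD142+ cells. Each row is a gene, rows are blocked by receptor group, each point is a population and carries no error bar, and the grey line joins the lowest and the highest population. Adgrg2 spans 7.40 to 396 and Ptger3 5.90 to 151, in opposite directions.

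Adhesion receptors are large proteins that bind matrix or membrane ligands with a long extracellular part and many of them are cut at an autoproteolysis site. Of the 19 in the tables, all were tested in ICAM1+ against DPP4+ cells, where 8 were higher and 4 lower. In CD142+ against DPP4+ cells 5 were higher and 3 lower, and in ICAM1+ against CD142+ cells 4 of 17 tested were higher and 3 lower. Adgrg2 (chrX:160390690-160498070, plus strand) is known for its part in fluid reabsorption in the efferent ducts of the male tract. It had a fitted level of 396 in DPP4+, 7.40 in ICAM1+ and 27.2 in CD142+ cells. The log2 fold change was -5.74 ± 0.38 (SE, n = 3 libraries each) in ICAM1+ and -3.87 ± 0.26 in CD142+ against DPP4+ cells, with adjusted p of 5.36e-49 and 6.44e-47. The difference between ICAM1+ and CD142+ cells passed the test as well (-1.88 ± 0.41, adjusted p = 1.40e-04), so that the 3 populations stood in the order DPP4+, CD142+, ICAM1+.

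Adgrd1 (chr5:129096750-129204599, plus strand), a Gs-coupled adhesion receptor, stood in the same order at a far higher level. Its fitted level was 5036 (DPP4+), 2013 (CD142+) and 922 (ICAM1+). All 3 differences passed the test, at -2.45 ± 0.12 for ICAM1+ against DPP4+ (adjusted p = 1.25e-91), -1.32 ± 0.12 for CD142+ against DPP4+ and -1.13 ± 0.12 for ICAM1+ against CD142+ cells. Adgrg6, which is needed for myelination by Schwann cells, was lower in ICAM1+ (-1.68 ± 0.24) and CD142+ cells (-1.36 ± 0.23) than in DPP4+ cells. Adgra2, a co-receptor for WNT7 in brain endothelium, was lower in ICAM1+ than in DPP4+ (-0.63 ± 0.11) and CD142+ cells (-0.41 ± 0.11), and its difference between CD142+ and DPP4+ cells of -0.22 ± 0.11 missed the threshold (adjusted p = 0.186).

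The adhesion receptors that were higher outside DPP4+ cells fell into different patterns. Adgre5, the CD97 antigen of leukocytes and other cells, had fitted levels of 110, 452 and 294 in DPP4+, ICAM1+ and CD142+ cells, and each difference passed the test (2.04 ± 0.17 and 1.42 ± 0.18 for ICAM1+ and CD142+ against DPP4+, and 0.62 ± 0.16 for ICAM1+ against CD142+). Exons of Ddx39 on the other strand cover 23.8% of its exon bases, and Ddx39 was 0.97 ± 0.16 higher in ICAM1+ than in DPP4+ cells. The immune markers, 14 of 16 of them in the tables, summed to fitted levels of 281, 494 and 333. Of 10 tested, 1 was higher in ICAM1+ (Kit) and 1 in CD142+ cells (Cd3e) against DPP4+, while Ptprc was at 18.9, 28.1 and 13.9. Their part in the Adgre5 result was not tested. The latrophilins bind teneurins and FLRT proteins on neighbouring cells. Adgrl1 was higher by 0.73 ± 0.12 and 0.69 ± 0.12, and Adgrl2 by 0.58 ± 0.17 and 0.80 ± 0.17, in ICAM1+ and CD142+ against DPP4+ cells. Of the Adgrl1 exon bases, 12.9% lie under Gm10644 on the other strand, which was itself higher in ICAM1+ (1.15 ± 0.20) and CD142+ cells (1.14 ± 0.20) than in DPP4+ cells. Adgrl3 was called in ICAM1+ against DPP4+ cells (1.14 ± 0.41). Adgrb2 of the brain angiogenesis inhibitor family was higher in ICAM1+ (1.45 ± 0.36) and CD142+ cells (1.99 ± 0.35), and Adgrb3, at a mean of 15.2, in CD142+ cells (1.69 ± 0.61).

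A further group of adhesion receptors was higher in ICAM1+ cells than in either other population. Adgrf5, a regulator of lung surfactant, had fitted levels of 625, 977 and 546 in DPP4+, ICAM1+ and CD142+ cells, with 0.64 ± 0.13 against DPP4+ and 0.84 ± 0.13 against CD142+ cells. Adgrl4, best known from endothelium, was at 84.1, 152 and 84.0. Adgrg1, which binds type III collagen, was at 148, 235 and 125. None of these 3 was called between CD142+ and DPP4+ cells, where their log2 fold changes were -0.20 ± 0.13, -0.00 ± 0.25 and -0.25 ± 0.21. Of 10 endothelial marker genes, 6 were higher in ICAM1+ than in DPP4+ cells and 7 higher than in CD142+ cells, and 0 were called in CD142+ against DPP4+ cells by DESeq2 (1 higher at an unadjusted p below 0.05). The summed fitted level of these markers was 3047, 4553 and 2874, with Cdh5 at 644, 989 and 649, and their part in the receptor results was not tested. In such sorted populations, more cells of a type and more RNA per cell cannot be told apart. Among the adhesion receptors called nowhere, Adgra3 (mean 406) and Adgrg3 (mean 15.2) had log2 fold changes of -0.31 ± 0.14 and 1.22 ± 0.57 in ICAM1+ against DPP4+ cells.

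**Figure D3:**
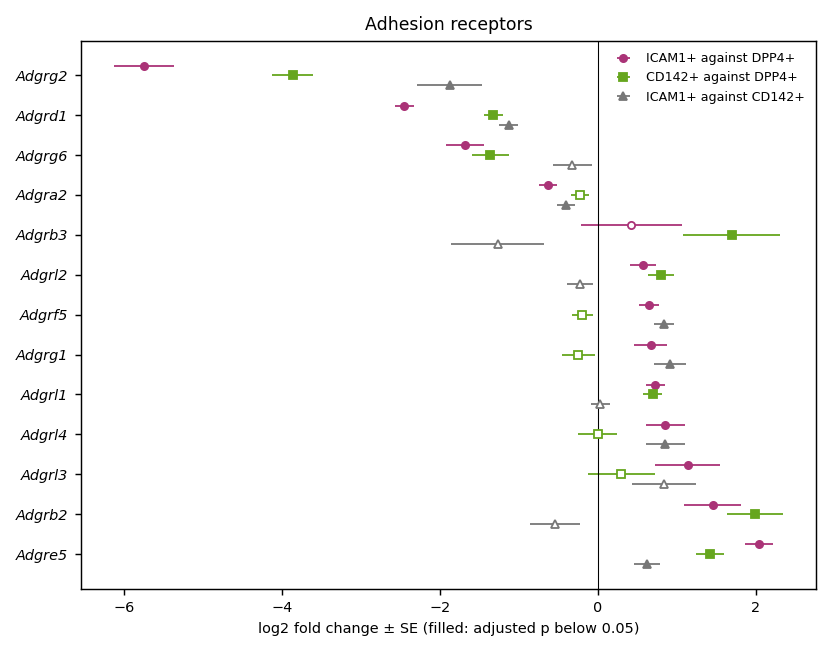
Log2 fold change ± SE (x axis) of the adhesion receptors called in at least 1 comparison (rows), with 1 marker per comparison, filled where the adjusted p is below 0.05. Adgrg2, Adgrd1, Adgrg6 and Adgra2 lie to the left of 0 and Adgre5 to the right in all 3 comparisons.

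Prostanoid receptors bind the lipids that cyclooxygenases make from arachidonic acid. Of the 7 measured, 6 were tested. Of these 3 were higher in ICAM1+ and 3 in CD142+ cells against DPP4+ cells, and 0 were lower in the DESeq2 tables, also at an unadjusted p below 0.05. Ptger3 (chr3:157566892-157645888, plus strand) encodes EP3, the Gi-coupled receptor for prostaglandin E2. Its fitted level was 5.90 in DPP4+, 151 in ICAM1+ and 64.0 in CD142+ cells. It was higher by 4.68 ± 0.43 in ICAM1+ (adjusted p = 1.44e-25) and by 3.44 ± 0.44 in CD142+ cells (adjusted p = 1.27e-13) than in DPP4+ cells, and by 1.24 ± 0.27 in ICAM1+ than in CD142+ cells. Ptgir (chr7:16906490-16910905, plus strand), the Gs-coupled receptor of prostacyclin, had fitted levels of 25.7, 403 and 319. It was higher by 3.97 ± 0.25 in ICAM1+ (adjusted p = 3.42e-55) and by 3.63 ± 0.25 in CD142+ cells (adjusted p = 4.48e-46) than in DPP4+ cells. Between ICAM1+ and CD142+ cells Ptgir differed by 0.34 ± 0.18, which missed the threshold (adjusted p = 0.296).

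Ptger2, the Gs-coupled EP2 receptor, was higher in both at a low mean of 12.7 (1.80 ± 0.71 and 2.12 ± 0.70). Ptger4, the Gs-coupled EP4 receptor, was called in no comparison. It was at 256, 285 and 271 in DPP4+, ICAM1+ and CD142+ cells, and 15.3% of its exon bases lie under a pseudogene, Gm15937. The log2 fold change of Ptger4 was 0.16 ± 0.17 in ICAM1+ and 0.08 ± 0.17 in CD142+ against DPP4+ cells, far smaller than those of Ptger3.

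Several genes that make and clear prostanoids were lower in the cells in which Ptger3 and Ptgir were higher. Of the 11 such genes measured, 10 were tested. Of these 4 were lower in ICAM1+ and 6 in CD142+ against DPP4+ cells, and 0 were higher in the DESeq2 tables, also at an unadjusted p below 0.05. Ptgs1, which encodes cyclooxygenase-1, had fitted levels of 666, 36.6 and 57.1 in DPP4+, ICAM1+ and CD142+ cells (-4.19 ± 0.25 and -3.54 ± 0.23 against DPP4+). Ptgs2, the inducible cyclooxygenase, was at 4120.2, 978 and 1646 (-2.07 ± 0.32 and -1.32 ± 0.32). Ptgis, the synthase of prostacyclin, was lower in ICAM1+ (-1.92 ± 0.15) and CD142+ cells (-2.20 ± 0.15), opposite to Ptgir. Hpgd, which degrades prostaglandins, was at 1602, 196 and 224. Slco2a1, the prostaglandin transporter, was lower in CD142+ cells than in each of the others (-2.10 ± 0.17 against DPP4+, and 1.79 ± 0.17 for ICAM1+ against CD142+).

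**Figure D4:**
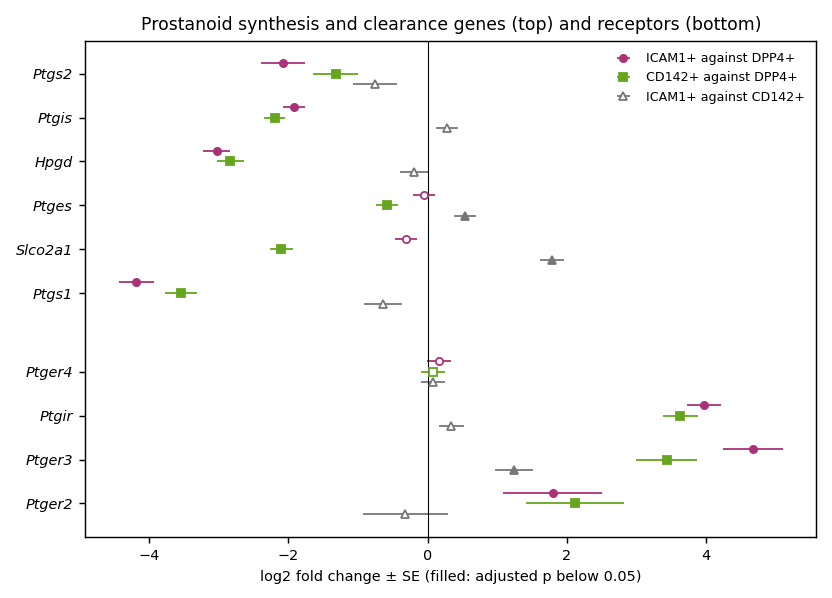
Log2 fold change ± SE (x axis) of genes for prostanoid synthesis and clearance (upper rows) and of the prostanoid receptors named in the text (lower rows) in the 3 comparisons, filled where the adjusted p is below 0.05. Ptgs1, Hpgd, Ptgis and Ptgs2 lie to the left and Ptger3, Ptgir and Ptger2 to the right of 0 against DPP4+ cells.

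Lysophospholipid receptors respond to lysophosphatidic acid (LPA, Lpar genes) and to sphingosine 1-phosphate (S1P, S1pr genes). Of 9 tested, 2 were higher and 2 lower in ICAM1+ against DPP4+ cells, and 1 higher and 2 lower in CD142+ against DPP4+ cells. The LPA receptors called were lower and the S1P receptors called were higher. S1pr3 (chr13:51408639-51422797, plus strand) had fitted levels of 169 in DPP4+, 1092 in ICAM1+ and 571 in CD142+ cells. It was higher by 2.69 ± 0.16 (adjusted p = 7.60e-63) and 1.76 ± 0.16 against DPP4+ cells and by 0.94 ± 0.15 in ICAM1+ against CD142+ cells. S1pr1, a Gi-coupled receptor abundant in endothelium and lymphocytes, was higher in ICAM1+ cells than in DPP4+ (0.68 ± 0.21) and CD142+ cells (0.67 ± 0.20), and the endothelial markers moved with it as above. S1pr2 was called nowhere, at 511, 480 and 555.

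Lpar1, the main LPA receptor here by level per kb, was at 1815, 1149 and 1235 in DPP4+, ICAM1+ and CD142+ cells. It was lower in ICAM1+ (-0.66 ± 0.11) and in CD142+ cells (-0.56 ± 0.11). Lpar3 (chr3:146220963-146286186, plus strand) was at 34.1, 1.17 and 4.26, lower in ICAM1+ (-4.86 ± 1.01, adjusted p = 1.49e-05) and in CD142+ cells (adjusted p = 4.72e-04). Its levels outside DPP4+ cells rest on few reads. Lpar4 was not called, at 103, 84.4 and 90.8. Of 10 genes for the supply and removal of lysophospholipids, 6 were higher and 0 lower in the DESeq2 table of ICAM1+ against DPP4+ cells (0 lower at an unadjusted p below 0.05). Among them were Sphk1, which makes S1P (0.83 ± 0.19), Enpp2, which makes extracellular LPA (0.95 ± 0.24), and the phosphatase Plpp1 (1.34 ± 0.17). In CD142+ against DPP4+ cells 2 of the 10 genes were higher and 1 was lower.

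Adenosine receptors differed in opposite directions although both that were called couple to Gs. Adora2b (chr11:62248984-62266453, plus strand) had fitted levels of 427 in DPP4+, 122 in ICAM1+ and 141 in CD142+ cells, and was lower in both (-1.80 ± 0.22 and -1.60 ± 0.21). Adora2a (chr10:75316877-75334784, plus strand) was at 30.1, 58.4 and 149, highest in CD142+ cells. Its log2 fold change was 2.31 ± 0.31 for CD142+ against DPP4+ (adjusted p = 5.28e-12), 0.95 ± 0.33 for ICAM1+ against DPP4+ (adjusted p = 0.0174) and -1.35 ± 0.29 for ICAM1+ against CD142+ (adjusted p = 1.42e-04). P2ry2, a receptor for ATP and UTP, was at 252, 184 and 185 and was not called (adjusted p of 0.0732 and 0.0951 against DPP4+). P2ry14, a receptor for UDP-glucose, was not called either at a mean of 26.6. Among the enzymes that handle extracellular nucleotides, Entpd2 was higher in ICAM1+ (0.90 ± 0.17) and CD142+ cells (1.04 ± 0.16), and Entpd1 was lower in CD142+ than in DPP4+ cells (-1.19 ± 0.19).

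All 4 receptors for endothelin and angiotensin were tested, and 3 were higher in ICAM1+ and 2 in CD142+ against DPP4+ cells. Ednra (chr8:77663031-77724464, minus strand), a Gq-coupled receptor known from smooth muscle, was at 40.6, 263 and 278 in DPP4+, ICAM1+ and CD142+ cells (2.70 ± 0.28 and 2.77 ± 0.28 against DPP4+). Agtr2 (chrX:21484544-21489164, plus strand) was at 214, 726 and 801 (1.76 ± 0.14 and 1.90 ± 0.14). In ICAM1+ against CD142+ cells these receptor genes had log2 fold changes of -0.08 ± 0.25 and -0.14 ± 0.14, which missed the threshold. Agtr1a, the receptor that mediates the pressor action of angiotensin II, was not called, at 411, 306 and 347. Ednrb was higher in ICAM1+ than in DPP4+ (0.99 ± 0.24) and CD142+ cells (1.03 ± 0.24), at 75.9, 151 and 74.1. Of 8 Schwann cell markers, 6 were higher in ICAM1+ than in DPP4+ and 6 higher than in CD142+ cells. Another pattern was that of S100b, at 25.7, 52.9 and 78.7, which was higher in CD142+ than in DPP4+ cells. Together these markers had summed fitted levels of 1328, 2794 and 1126, and their part in the result was not tested. Of 10 mural markers, 5 were higher and 1 lower in ICAM1+ against DPP4+ cells and 4 were higher in CD142+ cells, with Acta2 at 171, 1263 and 359. In ICAM1+ against CD142+ cells 6 were higher and 2 lower. The lower ones were Kcnj8, at 399, 95.9 and 340 in DPP4+, ICAM1+ and CD142+ cells, and Abcc9, at 696, 855 and 1640. The mural markers summed to 2490, 6872 and 4187, and their part in the receptor results was not tested. Enpep, which cleaves angiotensin II, was higher in ICAM1+ (3.45 ± 0.29) and CD142+ cells (1.88 ± 0.29), and Ace was lower in both (-0.63 ± 0.15 and -0.58 ± 0.15).

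Amine receptors were low, with 18 measured. Of 15 tested in ICAM1+ against DPP4+ cells, 4 were higher and 3 lower. Adra2a, the Gi-coupled α2A-adrenergic receptor, was at 29.5 in DPP4+, 147 in ICAM1+ and 59.7 in CD142+ cells, and all 3 differences passed the test (2.32 ± 0.29, 1.02 ± 0.30 and 1.30 ± 0.26). Adrb3, the β3-adrenergic receptor of adipocytes, had low fitted levels of 1.29, 8.09 and 21.3, and 24.9% of its exon bases lie under Gm45470 on the other strand. It was called higher in ICAM1+ (2.65 ± 1.03, adjusted p = 0.0417) and CD142+ cells (adjusted p = 4.84e-04). The adipocyte markers Adipoq and Plin1 were at 1.07, 95.2 and 35.1 and at 6.52, 152 and 44.6, and the 6 adipocyte markers summed to 23.3, 270 and 103, and their part in the Adrb3 result was not tested. Adrb1 was called nowhere (mean 8.55), nor was Adra1d (mean 10.1).

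Htr2a, a Gq-coupled serotonin receptor, was at 61.3 in DPP4+, 5.41 in ICAM1+ and 6.67 in CD142+ cells, lower in both of the latter (-3.50 ± 0.60 and -3.20 ± 0.56). Adra1a was higher in ICAM1+ cells, at 1.47, 19.0 and 3.88. Of the 46 called receptor genes, 5 fell outside the rule by which genes were chosen to be named and are given after their values were seen. Chrm2, the Gi-coupled muscarinic receptor of the heart, was at 8.54, 50.7 and 43.4 and was higher in ICAM1+ (2.57 ± 0.52) and CD142+ cells (2.34 ± 0.52). Adra1b was lower in ICAM1+ than in DPP4+ cells (-2.25 ± 0.71) and Gpr19 higher (1.44 ± 0.43). Chrm3 and Htr2b were higher in ICAM1+ than in CD142+ cells (1.75 ± 0.61 and 2.52 ± 0.80, adjusted p of 0.0477 and 0.0222 by the Wald test). Both had low means, of 14.2 and 9.77. Exons of Psmd1 on the other strand cover 11.8% of the Htr2b exon bases.

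**Figure D5:**
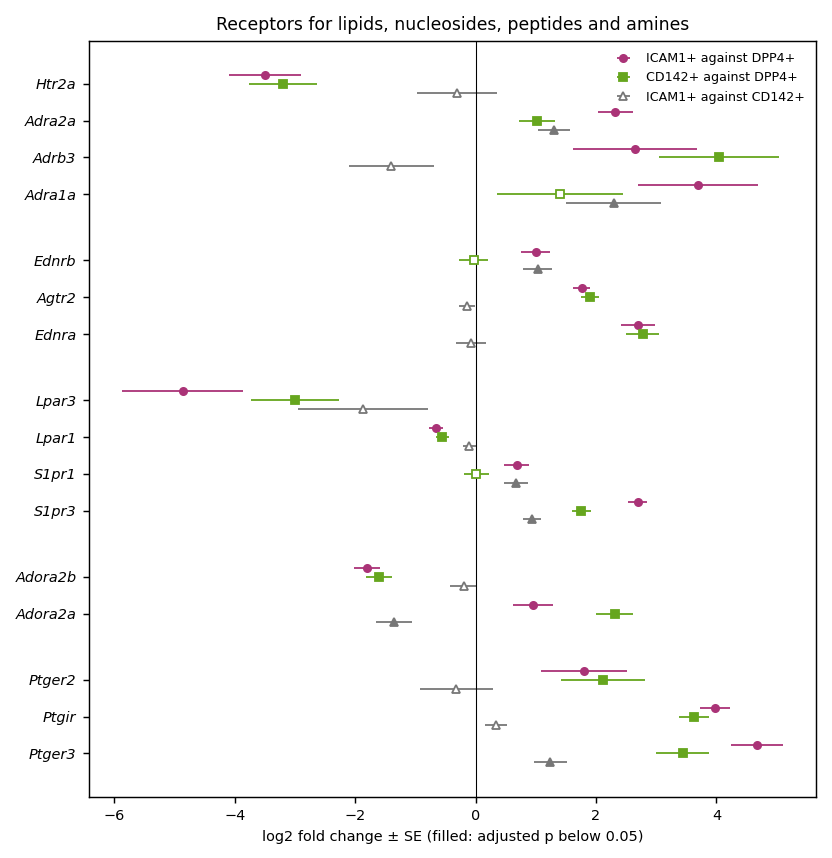
Log2 fold change ± SE (x axis) of the called receptors named for amines, endothelin and angiotensin, lysophospholipids, adenosine and prostanoids (blocks of rows from top to bottom), filled where the adjusted p is below 0.05. Adora2b and Adora2a, and Lpar3 and S1pr3, lie on opposite sides of 0 against DPP4+ cells.

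Receptors with a Gpr number, most of them without an agreed ligand, were the largest group, with 44 measured. In ICAM1+ against DPP4+ cells 2 of 35 tested were higher and 4 lower. Gpr1 (chr1:63182691-63214543, minus strand), a receptor for chemerin, was at 119 in DPP4+, 1.23 in ICAM1+ and 1.67 in CD142+ cells. Its log2 fold changes were the largest in size of all receptor genes called, at -6.59 ± 1.38 (adjusted p = 1.87e-05) and -6.15 ± 1.31 (adjusted p = 3.51e-05). Its levels in ICAM1+ and CD142+ cells rest on few reads. Gpr17, a receptor known from oligodendrocyte precursors, was at 110, 31.1 and 26.8 (-1.83 ± 0.33 and -2.04 ± 0.33). Gpr161, which acts in the primary cilium to restrain Hedgehog signalling, was lower in ICAM1+ than in DPP4+ cells (-0.54 ± 0.17). Gpr176, which acts in the circadian clock of the brain, was higher in both (3.75 ± 0.87 and 2.40 ± 0.88) at a mean of 12.8, and Gpr165 was lower in ICAM1+ cells (-3.04 ± 1.21, adjusted p = 0.0483) at a mean of 5.47.

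Gpr39 (chr1:125676995-125873862, plus strand), a receptor for zinc ions, was higher in CD142+ cells than in both other populations, at 17.1 in DPP4+, 29.7 in ICAM1+ and 164 in CD142+ cells. Its log2 fold change was 3.26 ± 0.38 for CD142+ against DPP4+ cells (adjusted p = 2.27e-16) and -2.46 ± 0.35 for ICAM1+ against CD142+ cells (adjusted p = 2.83e-10). Between ICAM1+ and DPP4+ cells the difference of 0.80 ± 0.40 missed the threshold (adjusted p = 0.148). Exons of Lypd1 on the other strand cover 39.9% of its exon bases, and Lypd1 itself had log2 fold changes of 2.80 ± 0.29 and -2.01 ± 0.27 in the same comparisons. The library protocol describes no strand step, and the strand setting of the counting is not given. The deposited rows also hold a class of ambiguous reads, with 2.07% of the summed means. How reads of the shared bases were counted is therefore not known. Gpr89, an ion channel of the Golgi, was lower in CD142+ than in DPP4+ cells (-0.95 ± 0.30), with 24.8% of its exon bases under Pdzk1 on the other strand, and Gpr107 was called nowhere (mean 462).

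The leucine-rich repeat receptors bind R-spondins and so strengthen WNT signalling. Lgr4 had fitted levels of 580, 247 and 330 in DPP4+, ICAM1+ and CD142+ cells and was lower in both (-1.23 ± 0.18 and -0.81 ± 0.18 against DPP4+). Lgr5 and Lgr6, the stem cell markers of gut and skin, had means of 27.3 and 3.80 and were not called. Of the Gprc5 receptors, Gprc5a is known for its induction by retinoic acid. Gprc5a (chr6:135065651-135084709, plus strand) was at 1027, 262 and 484 in DPP4+, ICAM1+ and CD142+ cells. It was lower in ICAM1+ (-1.97 ± 0.14, adjusted p = 1.88e-40) and CD142+ cells (-1.09 ± 0.14) against DPP4+, and in ICAM1+ against CD142+ cells (-0.89 ± 0.15). Gprc5b was lower in both against DPP4+ (-0.45 ± 0.13 and -0.60 ± 0.13), with 13.1% of its exon bases under Iqck, whose log2 fold changes of -0.46 ± 0.21 and -0.54 ± 0.21 missed the threshold. Gprc5c went the other way at a mean of 19.2, higher in ICAM1+ than in DPP4+ cells (1.90 ± 0.59). Gprc5d, at a mean of 1.61, was not tested.

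Grouped by the G protein they are best known to use, Gs-coupled receptors were called in both directions, with 4 of 9 higher and 2 lower in ICAM1+ and likewise in CD142+ against DPP4+ cells. The 17 receptors listed as mainly Gi-coupled were higher where called, 4 of 10 tested in ICAM1+ and 3 of 9 in CD142+ cells. Of those with an adjusted p, 0 were lower by DESeq2, also at an unadjusted p below 0.05. Gpr17 and Lpar1, which were lower in both, were not on this list, so the count does not cover every receptor. Among the listed Gi-coupled receptors left without an adjusted p, 1 was lower in ICAM1+ cells at an unadjusted p below 0.05. It was Htr1f (mean 1.63), which is named after its values were seen. Of 14 Gq-coupled receptors, 2 were higher and 2 lower in ICAM1+ and 1 higher and 1 lower in CD142+ cells. No test of the difference between these groups was made.

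The machinery downstream of the receptors was followed in 15 lists of pathway genes, 135 genes in all. In ICAM1+ against DPP4+ cells 35 of 127 tested (27.6%) were higher and 26 (20.5%) lower, beside 12.4% and 12% of all genes. In CD142+ against DPP4+ cells 31 of 126 (24.6%) were higher and 25 (19.8%) lower, beside 10.1% and 8.91% of all genes. In ICAM1+ against CD142+ cells 18 of 120 (15%) were higher and 9 (7.5%) lower, beside 3.77% and 5.28% of all genes. The same shares of all genes apply to the counts of single lists. Of the α subunits, Gnas, which encodes Gαs, was higher in ICAM1+ (0.50 ± 0.11) and CD142+ cells (0.45 ± 0.11), and so was Gnai1 (1.12 ± 0.24 and 0.73 ± 0.24). The γ subunit gene Gng4 was lower in both (-2.29 ± 0.29 and -1.20 ± 0.26). Of the RGS proteins, which speed the switching off of Gi and Gq, 4 of 14 were higher and 1 lower in ICAM1+ against DPP4+ cells. Rgs16 was at 302, 1946 and 1295 and Rgs5, itself a mural marker, at 498, 2262 and 805. Rgs2 was instead highest in CD142+ cells, at 85.3, 98.5 and 216.

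Adenylyl cyclases make cyclic AMP and phosphodiesterases break it down. Of 8 adenylyl cyclase genes tested, 4 were higher and 1 lower in ICAM1+ against DPP4+ cells, and 0 were called by DESeq2 in CD142+ against DPP4+ cells (1 lower at an unadjusted p below 0.05). Adcy7 was at 846, 287 and 932, lower in ICAM1+ cells than in either other population, and Adcy5 at 113, 264 and 93.6, higher there. Of 11 cAMP phosphodiesterase genes, 5 were higher and 2 lower in each of ICAM1+ and CD142+ against DPP4+ cells. Pde3a was at 339, 1362 and 738 (2.01 ± 0.14 and 1.12 ± 0.15 against DPP4+), and Pde8a at 1354, 258 and 340 (-2.39 ± 0.15 and -1.99 ± 0.15). Prkar2b, a regulatory subunit of protein kinase A abundant in fat, was at 28.6, 197 and 90.7 (2.78 ± 0.29 and 1.66 ± 0.29). Ramp2, a partner of the calcitonin-like receptor, was lower in both, at 678, 291 and 338.

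Ligands of the adhesion receptors were also uneven. Of 10 tested, 2 were higher and 4 lower in ICAM1+ against DPP4+ cells. Cd55, the ligand of Adgre5, was at 3970.3 in DPP4+, 316 in ICAM1+ and 535 in CD142+ cells (-3.65 ± 0.12 and -2.89 ± 0.11), opposite to Adgre5 itself. Flrt2, a ligand of latrophilins, was lower in ICAM1+ than in DPP4+ (-1.08 ± 0.16) and CD142+ cells (-0.90 ± 0.16), and Tenm3, a teneurin, was higher in ICAM1+ (0.62 ± 0.16) and CD142+ cells (0.94 ± 0.16) than in DPP4+ cells. Col3a1, the collagen bound by Adgrg1, was lower in ICAM1+ than in DPP4+ (-0.53 ± 0.10) and CD142+ cells (-0.58 ± 0.10), while Adgrg1 was higher there.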

How the data were processed

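Samples were grouped by the population in their labels. The labels do not say that replicates are separate animals, so p-values measure the spread between these libraries, which may be technical. According to the processing notes of the submitters, the authors used STAR 2.5.2a with the build mm10, and R 3.5.1 with DESeq2, whose version is not listed, while annotation release and strand setting are not given in the sources used here.

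Deposited were 3 tables, 1 per pairwise comparison. Their mean is a signal, computed by the authors over the 9 libraries from counts scaled by size factors. The authors obtained the log2 fold changes with standard errors from DESeq2, and the deposited Wald statistic is a score. Raw and Benjamini-Hochberg adjusted p-values are as deposited. These comparison columns are the main values here, since values per library were not used, and the depth of each library is unknown. Of 20659 rows, 4 name no gene but summary classes of STAR, with 46.5% (no feature), 7.98% (unmapped), 3.04% (multimapping) and 2.07% (ambiguous) of the summed means, and the genes hold 40.4%. These 4 rows were left out here. The 3 log2 fold changes closed within 0.01 for 20612 of 20655 genes, so the tables were read as 1 fit of 9 libraries.

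Identifiers were matched without version to GENCODE M21 (GRCm38), which named 20618 genes, and coordinates, exon lengths and exon overlaps were taken from it. Promoters came from RefSeq (GRCm38.p6). Calculations used Python 3.11.15, pandas 2.3.3 and scipy 1.17.1 and were tested on simulated data.

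The receptor genes, their groups and the pathway and marker lists were chosen with earlier results of these data known. Named were Adgrg2, every called receptor gene of a group with a mean of at least 50, up to 3 called ones per group below 50 with the largest change, the 2 uncalled ones per group with the highest mean, and per pathway list up to 3 called genes per comparison with a mean of at least 100. Some results that this rule takes in are not reported here. Other thresholds, filters, a test against a log2 fold change of 1, re-centring, and leaving out genes with overlapping exons or proteins that are not surface receptors were tried. Of the markers, immune genes summed to 281, 494 and 333 in DPP4+, ICAM1+ and CD142+ cells (1 of 10 tested higher in ICAM1+ against DPP4+). Epithelial genes summed to 25.1, 123 and 56.3 (4 of 6) and skeletal muscle genes to 127, 205 and 97.2 (1 of 6). Mesothelial genes summed to 13.4, 8.66 and 17.5 (0 of 3 in the authors' DESeq2 table, with 0 higher and 1 lower at an unadjusted p below 0.05). Of the stromal markers, 1 of 7 was higher and 5 were lower.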

Additional observations from a re-analysis of the deposited data

How the results depend on the processing

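No paired analysis was possible because the deposited tables analysed hold no values per library, and leaving out replicates, another fit and another normalization were not run for the same reason. Re-centring on the median of the 7952 genes whose mean reached 100 took off medians of -0.0668 and -0.0532 for ICAM1+ and CD142+ against DPP4+ cells and of -0.0243 between ICAM1+ and CD142+ cells, on the log2 scale. It turned the sign of 5 uncalled values near 0, to 0.0507 (Adgrl4), 0.0241 (Adrb1), 0.0183 (Ednrb) and 0.0217 (Lgr6) in CD142+ against DPP4+ cells and 0.0126 (P2ry2) in ICAM1+ against CD142+ cells, and ended the call of Gpr165.

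The counts of receptor genes called depended on filters on level and size. When only genes of the whole table whose mean reached 100 were tested, 12 receptor genes were higher in ICAM1+ against DPP4+ (17.7% of all genes tested so), 7 higher and 8 lower in CD142+ against DPP4+ (14.9% and 15.8%), and 7 higher in ICAM1+ against CD142+ cells (5.51%), since fewer genes were tested. The number of receptor genes tested so is not given, so these counts cannot be set beside the shares of all genes. Lower counts of ICAM1+ against DPP4+ and against CD142+ cells are not listed (22.2% and 9.43% of all genes). The settings on size that follow tested the same 102, 101 and 87 receptor genes as before. With an absolute log2 fold change of at least 1, 6 were higher in ICAM1+ against CD142+ cells (1.58% of all genes). Tested against a log2 fold change of 1, 8 were higher and 7 lower in ICAM1+ against DPP4+ (1.89% and 2% of all genes) and 7 higher and 4 lower in CD142+ against DPP4+ (1.77% and 1.44%). In ICAM1+ against CD142+ cells 0 were then higher (0 also at an unadjusted p below 0.05, by the Wald test on the DESeq2 values) and 1 lower (0.0757% and 0.341%). Of the pathway genes, 20 and 19 were higher in ICAM1+ and CD142+ against DPP4+ and 9 in ICAM1+ against CD142+ cells with a log2 fold change of at least 1 (7.09%, 5.83% and 1.58% of all genes). Tested against that size, 9 were higher and 11 lower in ICAM1+ against DPP4+, 5 higher and 9 lower in CD142+ against DPP4+, and 1 higher and 1 lower in ICAM1+ against CD142+ cells. Of 186 results for 62 receptor genes, called or not, 63 were no longer past the threshold in the test against a log2 fold change of 1. Only results called at first could be lost, which were 24 higher and 17 lower in ICAM1+ against DPP4+ cells. They were 17 and 14 in CD142+ against DPP4+ and 12 and 6 in ICAM1+ against CD142+ cells. The kept results counted next include uncalled ones, which could not be lost. Direction and side of the threshold were kept by 143 with a mean of at least 100, 160 with an absolute log2 fold change of at least 1, 173 at an adjusted p below 0.01, 180 at 0.1 and upon re-centring, 182 with a mean of at least 10 and 182 when p-values were adjusted over every gene. Leaving out the genes with overlapping exons or the proteins that are not surface receptors kept every count within 1.5 times.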
